A study of Mus musculus with 16 samples.

Results

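Transcripts of the CXCL chemokines were examined in the colon of mice with and without DSS-induced colitis. The members were the genes named Cxcl1, Cxcl2, Cxcl3, Cxcl5, Cxcl9, Cxcl10, Cxcl11, Cxcl12, Cxcl13 and Cxcl16, taken wherever 1 of the 4 deposited tables listed them. Of these 10 genes 9 were found, out of 5171 distinct genes in the tables, and Cxcl11 was in none of them. Because the tables list only genes called by the authors at an adjusted p-value of 0.05, each of the 9 had already been called in at least 1 comparison.

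RNA had been prepared from whole colon tissue of C57BL/6 mice and sequenced with reads of 100 bases, which the labels call single-end and the methods of the study paired-end. The genotypes were wild type (WT) and loss of functional Smarcad1, a chromatin remodeling ATPase, through Vil-Cre (KO), and mice were either untreated (control) or after 15 days of 1% DSS in the drinking water (colitis). DSS, a sulfated polysaccharide, is widely used to provoke colitis in mice. Each genotype had 3 control and 5 colitis samples, and all 16 came from mice given an enriched microbiota by bedding transfer, starting 2 weeks before DSS. The villin promoter drives Cre in the epithelium, so all other cells of the tissue keep the gene, and only some exons are removed, so that reads over the others can remain. The labels give neither the age nor the sex of the mice, and the methods of the study describe the mice as males. They name colon as the source, whereas the design text of the series speaks of small intestinal tissue.

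Chemokines are small secreted proteins that guide leukocytes along concentration gradients by binding G protein-coupled receptors. The CXC family is named after its first cysteines, a pair with a single residue between them. Members with the residues glutamate, leucine and arginine (ELR) directly before this pair bind Cxcr2 in the mouse and attract neutrophils, and they are produced by epithelium, stroma and myeloid cells upon bacterial products, IL-1, TNF and IL-17. Cxcl9, Cxcl10 and Cxcl11 lack ELR, are induced by interferons and attract T and NK cells through Cxcr3. Cxcl12 (ligand of Cxcr4) and Cxcl13 (ligand of Cxcr5) are made by stromal cells at steady state, and Cxcl16 is a membrane-bound ligand of Cxcr6 that can be shed.

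The coding sequence around the first cysteine codon is shown because it separates the neutrophil-attracting members from the rest. Each stretch has 36 bases of a coding exon (GENCODE M21, GRCm38), 5′ to 3′ on the strand of the gene, and capitals mark the 3 codons before the first cysteine codon of the C-x-C pair. These codons read glutamate, leucine and arginine in Cxcl1, Cxcl2, Cxcl3 and Cxcl5 and in none of the other 5.
Cxcl1 (chr5:90891478-90891513, + strand): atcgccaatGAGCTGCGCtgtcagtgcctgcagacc
Cxcl2 (chr5:90904124-90904159, + strand): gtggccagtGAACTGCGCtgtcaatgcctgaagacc
Cxcl3 (chr5:90786350-90786385, + strand): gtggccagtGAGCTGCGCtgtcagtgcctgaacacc
Cxcl5 (chr5:90759709-90759744, + strand): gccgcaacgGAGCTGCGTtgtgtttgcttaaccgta
Cxcl9 (chr5:92326833-92326868, − strand): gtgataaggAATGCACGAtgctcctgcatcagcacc
Cxcl10 (chr5:92348172-92348207, − strand): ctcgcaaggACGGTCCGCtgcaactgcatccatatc
Cxcl12 (chr6:117171490-117171525, + strand): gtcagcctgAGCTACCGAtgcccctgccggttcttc
Cxcl13 (chr5:95958646-95958681, + strand): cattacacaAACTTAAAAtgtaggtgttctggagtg
Cxcl16 (chr11:70459118-70459153, − strand): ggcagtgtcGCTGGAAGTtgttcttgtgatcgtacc

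The members are also grouped by position. Of the 9, 7 lie on chromosome 5 (GRCm38). The ELR members Cxcl5 (chr5:90759360-90761624), Cxcl3 (chr5:90786103-90789600), Cxcl1 (chr5:90891241-90893115) and Cxcl2 (chr5:90903871-90905938) stand on the plus strand within 146.579 kb, with no other listed gene between them. Cxcl9 (chr5:92321347-92328079) and Cxcl10 (chr5:92346638-92348889) are 18.558 kb apart on the minus strand, and Cxcl13 (chr5:95956951-95961068) is on the plus strand. Cxcl12 is on chromosome 6 (chr6:117168535-117181367, plus strand) and Cxcl16 on chromosome 11 (chr11:70453983-70459984, minus strand). All 9 coordinates were identical in the tables and in GENCODE.

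Over their coding sequences Cxcl2 and Cxcl3 were identical at 89.7% of aligned bases, Cxcl1 and Cxcl2 at 78.8%, and Cxcl1 and Cxcl3 at 75.7%. Gaps were not counted, and the longer Cxcl16 also reached 78.8% with Cxcl1. Values in this range thus do not set the ELR members apart. The transcripts of Cxcl2 and Cxcl3 share an unbroken run of 157 identical bases, longer than a read. A single read of 100 bases that falls wholly into this run cannot be assigned to either gene, and only uniquely mapped reads had been kept. A mate outside the run could place it if the reads were paired. Over all annotated transcripts, windows of 100 bases shared with another member make up 3.05% of those of Cxcl2 and 1.88% of those of Cxcl3. From this sharing alone, the levels of both are uncertain by up to about that share. Sharing with the rest of the genome was not examined. For the other 7 members no window of 100 bases was shared with another member. Exons of Cxcl10 overlap those of Art3 on the other strand over 133 of 2252 bases (5.91%), and whether counting used strand is not given in the sources used here.

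Of the 9 members 7 had a promoter in RefSeq (GRCm38.p6), the exceptions being Cxcl5 and Cxcl16. In the 250 bases before the start, the NF-kB consensus was found on either strand in Cxcl1, Cxcl2, Cxcl3 and Cxcl10, and in 3.90% of 32851 mouse promoters of this length. The windows below run from 120 to 41 bases before the RefSeq start, 5′ to 3′ on the strand of the gene, with the match in capitals. They are shown because 3 of these genes carry the same letters there. Cxcl1, Cxcl2 and Cxcl3 each have a run of 11 identical bases, which holds 2 overlapping matches, and Cxcl10 has a match in the window and another one farther upstream.
Cxcl1 (chr5:90891125-90891204, + strand): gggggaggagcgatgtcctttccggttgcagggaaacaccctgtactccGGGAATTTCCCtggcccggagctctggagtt
Cxcl2 (chr5:90903779-90903858, + strand): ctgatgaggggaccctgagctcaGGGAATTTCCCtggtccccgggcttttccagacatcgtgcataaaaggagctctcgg
Cxcl3 (chr5:90785981-90786060, + strand): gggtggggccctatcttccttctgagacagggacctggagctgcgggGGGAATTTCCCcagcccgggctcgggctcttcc
Cxcl10 (chr5:92348930-92349009, − strand): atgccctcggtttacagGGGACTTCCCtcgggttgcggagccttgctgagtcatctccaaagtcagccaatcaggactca
The interferon response element (GAAA and a second GAAA after 2 bases of any kind), searched on both strands, was present in the same 250 bases of Cxcl10 alone among the 7, and in 2.98% of all promoters. TATAAA, searched on the strand of the gene, was present in Cxcl3, Cxcl9 and Cxcl13, and in 7.59% of all promoters. No match of one motif overlapped a match of another. These matches describe letters in the windows, and binding of a factor was not measured.

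All levels below are the authors' group means of log2 RPM (reads scaled to the library total), in which a library without a read had been set to 0.9 read. They are not divided by transcript length, and single libraries were not used, so that no SD, interval or test against the spread between mice could be given for any difference. The geometric mean library size was between 8.005 and 10.1 M reads per group, and a mean of 3 reads per library, between −1.75 and −1.42 log2 RPM, was taken as the floor. Between colitis and control the median of all 5171 listed genes was higher by 0.13 in WT and 0.19 in KO. Smarcad1 checked the genotypes, with untreated means of 5.77 log2 RPM in WT and 4.59 in KO, and colitis means of 5.68 in WT and 4.55 in KO. The colon markers Car1, Aqp8 and Slc26a3 had means between 9.36 and 11.74 log2 RPM in all 4 groups. Of 5 small intestinal markers only Fabp6 was listed, at 1.22 in WT control, 1.41 in KO control, 1.90 in WT colitis and 3.11 in KO colitis.

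To see how the chemokines change upon colitis induction, colitis was compared with control within each genotype. All 9 members had a higher mean in colitis than in control, in WT and in KO, where 54.0% and 54.3% of all listed genes were higher. The difference was at least 1 on the log2 scale for 8 members in WT and for 7 in KO, against 18.4% and 16.0% of all listed genes. Differences of at least 4 were found for 6 members in WT and for 3 in KO, against 1.3% and 0.522% of all listed genes. Being listed is part of how the members were chosen, so these counts describe them and nothing is read from them. Each of the colitis tables held 8 members, against 63.1% of all listed genes for the WT table and 78.4% for the KO table, and 7 members were in both, against 42.2%. In bulk tissue, fewer cells of a type and less RNA per cell cannot be told apart.

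The ELR members were low or undetected in control tissue. Cxcl5, which in the mouse is made largely by epithelial cells, was the only 1 of the 4 above the floor in control tissue. Without colitis its mean was 0.02 log2 RPM in WT and 0.12 in KO, and with colitis it reached 5.82 in WT and 4.21 in KO. This made Cxcl5 transcripts 55.8-fold higher in colitis than in control in WT and 17.05-fold higher in KO.

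Cxcl2, an early neutrophil attractant of myeloid cells, was nearly undetected without colitis. The means of the controls resolve into whole reads, with 2 reads in 1 WT library and 3 reads in 1 KO library, and 0 reads in the other 4. In colitis the mean was 3.89 log2 RPM in WT and 1.52 in KO, or 119 and 28.3 reads per library. Set against the floor of 3 reads per library, Cxcl2 was at least 50.01-fold higher in colitis in WT and at least 9.33-fold higher in KO. The deposited difference of 6.997 in WT rests on the 0.9 read set for empty libraries, and was 5.64 with means raised to 3 reads and 3.91 with 10 reads. Cxcl2 was listed for colitis in KO and not in WT. Of the 67 genes with a difference of at least 4 in WT, 7 (10.4%), Cxcl2 included, were not in the WT table.

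Cxcl3, the close relative of Cxcl2, had 0 reads in all 6 control libraries. In colitis its mean was 1.95 log2 RPM in WT, or 30.9 reads per library, and −1.11 in KO, or 4.58 reads per library. This is at least 13.03-fold higher in colitis in WT and at least 1.51-fold higher in KO. Cxcl3 was listed for colitis in WT and not in KO. At so few reads the KO value depends on how a missing read is treated, and with all means raised to at least 10 reads per library its difference in KO was −0.015.

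Cxcl1, a neutrophil attractant of epithelium and stroma, was also at or under the floor in controls. The geometric mean was 1.75 reads per library in WT control and 1.53 in KO control, with 1 library of each group at 0. In colitis its mean was 2.46 log2 RPM in WT and 1.24 in KO, or 44.2 and 23.3 reads per library. Cxcl1 was thus at least 18.6-fold higher in colitis in WT and at least 7.68-fold higher in KO. It was listed for colitis in both genotypes, as were Cxcl5 and all members that follow.

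**Figure D1:**
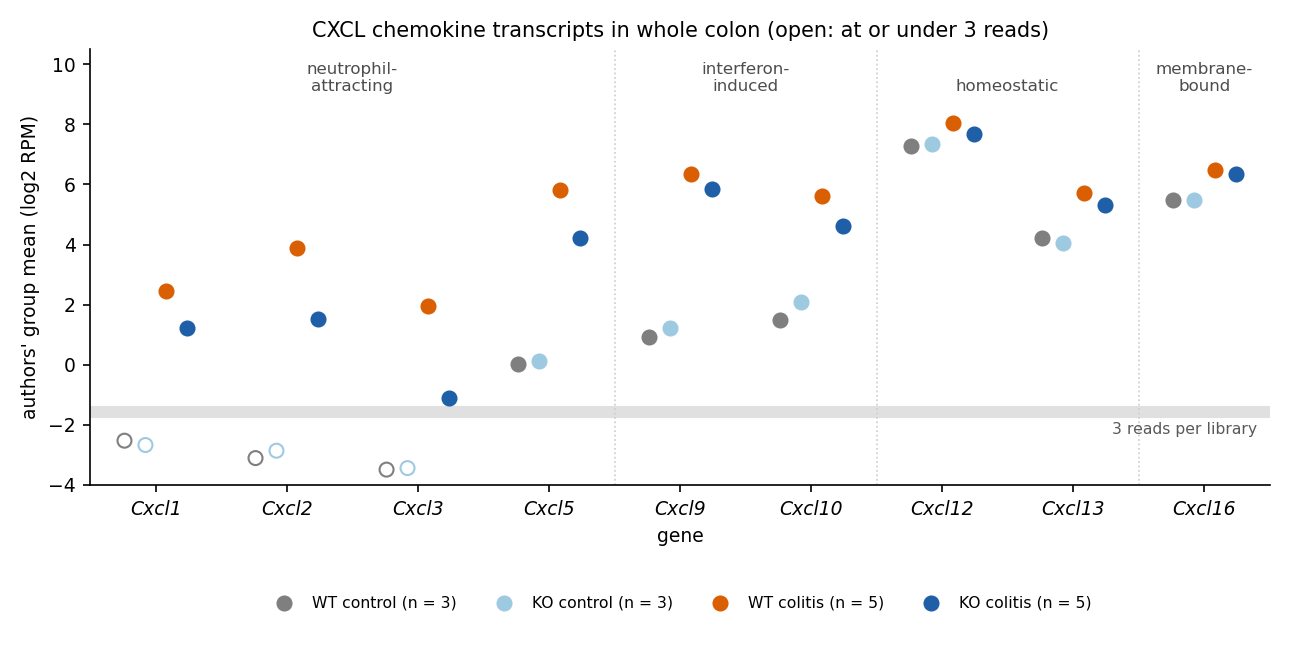
Authors' group means (log2 RPM) of the 9 CXCL members in the control and colitis groups of both genotypes, without a spread because single libraries were not used. Open circles are means at or under 3 reads per library (grey band, −1.75 to −1.42 log2 RPM). Cxcl1, Cxcl2 and Cxcl3 are open in both control groups, while Cxcl12, the highest on this scale, moves from 7.28 to 8.04 in WT.

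The interferon-induced members were above the floor in all 4 groups. Cxcl9, an attractant of activated T cells, had a mean of 0.93 log2 RPM in WT control, 1.22 in KO control, 6.34 in WT colitis and 5.85 in KO colitis. It was 42.5-fold higher in colitis than in control in WT and 24.7-fold higher in KO. Of the 9 members Cxcl9 had the largest difference in KO, 4.63 on the log2 scale, and ranked 13th of all listed genes there, after 21st in WT. Cxcl10, which acts on the same receptor, had a mean of 1.502 log2 RPM in WT control, 2.08 in KO control, 5.63 in WT colitis and 4.61 in KO colitis. It was 17.5-fold higher in colitis in WT and 5.77-fold higher in KO.

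The remaining members were present in every group and changed least. Cxcl13, which attracts B cells into follicles, had a mean of 4.21 log2 RPM in WT control, 4.04 in KO control, 5.71 in WT colitis and 5.31 in KO colitis, 2.84-fold higher in colitis in WT and 2.41-fold in KO. Cxcl16 stood at 5.48 in WT control, 5.47 in KO control, 6.48 in WT colitis and 6.34 in KO colitis, 2.004-fold and 1.83-fold higher. Cxcl12, which retains and positions leukocytes in stroma, stood at 7.28 in WT control, 7.35 in KO control, 8.04 in WT colitis and 7.69 in KO colitis, 1.69-fold and 1.26-fold higher. Its difference of 0.34 in KO was under the median of 0.37 of the 5 listed housekeeping genes, and turned to −0.03 when centred on them. All 5 were themselves listed as higher in colitis in KO, so centring on them lowers any rise and decides nothing about Cxcl12.

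To rank the members by level, means were divided by exon length (RPKM). This length merges the exons of all annotated transcripts of a gene, such as 8176 bases for Cxcl12 and 1150 for Cxcl13. The orders depend on it, and which transcripts were present was not examined. In WT control the order was Cxcl12 (19.1 RPKM), Cxcl13 (16.1), Cxcl16 (14.7), Cxcl10 (1.26), Cxcl9 (0.633) and Cxcl5 (0.544), with the other 3 at the floor. KO control had the same genes above the floor, with Cxcl16 (14.7 RPKM) and Cxcl13 (14.3) in exchanged places. In WT colitis Cxcl13 led with 45.6 RPKM. It was followed by a group of close values, Cxcl12 with 32.2, Cxcl5 with 30.4, Cxcl16 with 29.6, Cxcl9 with 26.9 and Cxcl10 with 22.03 RPKM. Cxcl2 (7.17 RPKM), Cxcl1 (2.94) and Cxcl3 (1.10) were lower. In KO colitis Cxcl13 led again with 34.5 RPKM, and Cxcl5 was sixth with 9.92 RPKM, after Cxcl9 with 19.1 and Cxcl10 with 10.8. Cxcl2 (1.39 RPKM), Cxcl1 (1.26) and Cxcl3 (0.133) stood last in the same order as in WT. Without a spread between libraries, whether neighbors in these orders differ beyond their error could not be said.

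To see whether genotype matters without colitis, the untreated groups were compared. The difference was positive for 6 members and negative for 3, between −0.17 for Cxcl13 and 0.58 for Cxcl10, while 51.0% of all listed genes were higher in KO. The signs depend on the scaling, since 3 members were positive and 6 negative when centred on the housekeeping genes. For Cxcl1, Cxcl2 and Cxcl3 both control means were at or under the floor, and no fold is given. None of the 9 was listed for this comparison, which listed 0.89% of the 5171 genes.

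KO and WT were then compared in colitis. All 9 members had a lower mean in KO colitis than in WT colitis, where 52.6% of all listed genes were lower, and 5 of the 9 were lower by at least 1 on the log2 scale, against 2.9% of all listed genes. None of the 9 was listed by the authors for this comparison, which listed 1.08% of the genes, so that none of these differences had passed the authors' test. The ELR members differed most. Cxcl3 was 8.32-fold lower in KO colitis, a log2 difference of −3.06 that became −1.93 with means raised to 10 reads per library. Cxcl2 was 5.17-fold lower, Cxcl5 3.06-fold and Cxcl1 2.34-fold. Cxcl10 was 2.03-fold lower, and Cxcl9 1.41-fold. The differences were smallest for Cxcl13 (1.32-fold lower), Cxcl12 (1.28-fold) and Cxcl16 (1.10-fold).

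**Figure D2:**
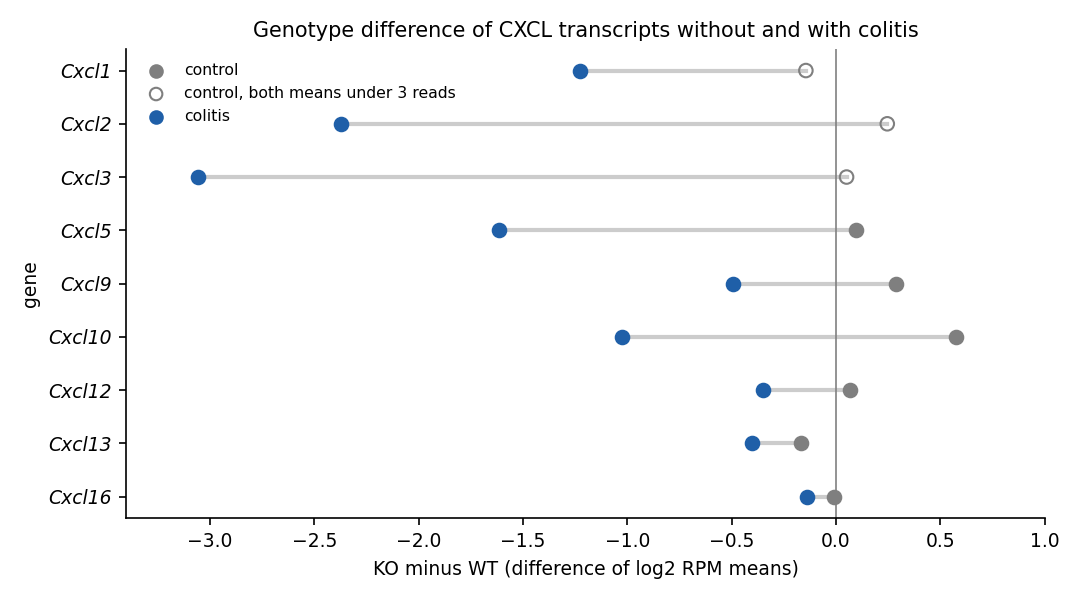
KO minus WT difference of the authors' group means (log2 RPM) for each member, in control (grey, open where both means are under 3 reads per library) and in colitis (blue). In colitis all 9 points lie left of 0, from −3.06 for Cxcl3 to −0.14 for Cxcl16, and in control they lie between −0.17 and 0.58.

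The rise upon colitis was accordingly smaller in KO than in WT for all 9 members. The difference between the changes was −3.11 for Cxcl3, −2.62 for Cxcl2, −1.71 for Cxcl5, −1.60 for Cxcl10, −1.08 for Cxcl1 and −0.78 for Cxcl9, and between −0.42 and −0.13 for Cxcl12, Cxcl13 and Cxcl16. Over all listed genes, the KO change was below the WT change in 52.7%. Genes picked for a large difference in WT will tend to have a smaller one in KO through the choice alone. Sets with a difference of at least 4 in either genotype were therefore described, leaving out the members. The set picked in KO was added after the values had been seen. Of 61 other genes with a difference of at least 4 in WT, 96.7% had a smaller one in KO and 93.4% were lower in KO colitis. Of 24 other genes with a difference of at least 4 in KO, 83.3% had a smaller one in KO than in WT, and 83.3% were lower in KO colitis. Among the 1211 genes with a WT difference between 0.5 and 2, Cxcl12, Cxcl13 and Cxcl16 included, 66.4% had a smaller one in KO and 64.5% were lower in KO colitis. None of this was tested against the spread between mice.

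**Figure D3:**
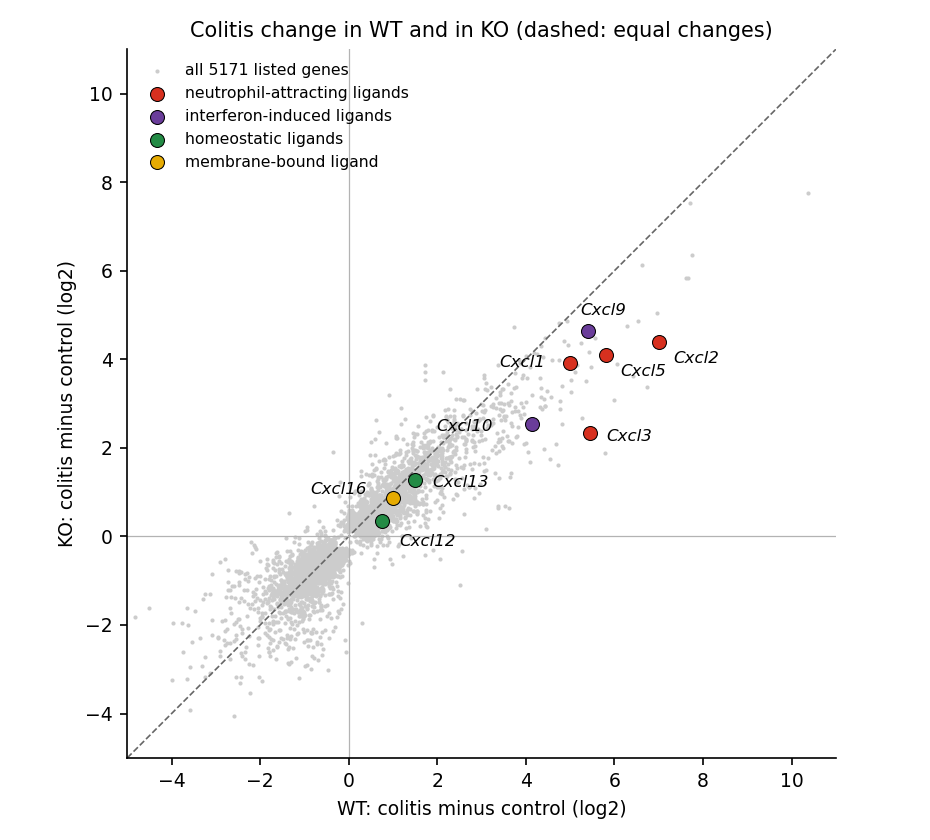
Colitis minus control difference of log2 RPM means in WT (horizontal) and in KO (vertical) for the 5171 listed genes (grey) and the 9 CXCL members (colored by role), with equal changes on the dashed line. All 9 members lie in the upper right and below the dashed line, from Cxcl12 at 0.76 and 0.34 to Cxcl2 at 6.997 and 4.38.

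For each member the 3 listed genes with the most similar pattern were sought, by the smallest Euclidean distance between the 4 group means after each gene was centred on its own mean, among 5050 genes above the floor in both colitis groups. With 4 points per gene this is a description of likeness only. Control means entered without a floor, and those of Cxcl1, Cxcl2 and Cxcl3 were at or under it. Their likeness to other genes thus rests partly on a shared lack of reads in controls. Ifng, for example, was at the 0.9 read set for empty libraries in both control groups. For Cxcl2 they were Saa3 (distance 0.47 on the log2 scale), Cxcr2 (0.52) and Prss22 (0.70). Cxcl3 lay nearest to Ccl4 (0.41), Mmp8 (0.47) and Il1f9 (0.61), Cxcl1 to Mmp3 (0.20), Gml (0.25) and Ifng (0.38), and Cxcl5 to Myot (0.29), Il6 (0.36) and Il1b (0.46). The neighbors of Cxcl9 were Ly6i (0.22), Ltf (0.39) and Gzma (0.41), and those of Cxcl10 were C6 (0.32), Ppef1 (0.33) and Clec4d (0.33). Cxcl12 was nearest to Cd55, Glipr2 and Myd88, Cxcl13 to Tnfrsf1b, Tmem221 and Slc7a11, and Cxcl16 to Cnn2, C1s1 and Apoe, at distances from 0.04 to 0.09.

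The receptors of the ligands were examined next. Of 10 receptor genes 4 were listed, all 4 for colitis in both genotypes and all 4 higher in colitis. Of all listed genes 42.2% were listed for colitis in both genotypes, and 54.0% in WT and 54.3% in KO were higher in colitis. Cxcr2, the receptor of the ELR members, had a mean of −3.44 log2 RPM in both control groups, under the floor, and of 3.09 in WT colitis and 1.4203 in KO colitis. Cxcr3, the receptor of Cxcl9 and Cxcl10, stood at 0.23 in WT control, 0.13 in KO control, 1.87 in WT colitis and 2.27 in KO colitis. Cxcr6, the receptor of Cxcl16, stood at 0.85 in WT control, 1.13 in KO control, 3.22 in WT colitis and 3.05 in KO colitis. Cxcr4, the receptor of Cxcl12, stood at 3.99 in WT control, 3.56 in KO control, 4.50 in WT colitis and 4.56 in KO colitis. In KO colitis, Cxcr2 was thus lower than in WT, with a difference of −1.67 on the log2 scale, as were its ligands, whereas Cxcr3 was higher by 0.40 and both its listed ligands were lower. None of the 4 receptors was listed for KO against WT in colitis, a comparison that listed 1.08% of all genes.

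Of 10 cytokines that induce CXCL ligands 8 were listed, and all 8 were higher in colitis by at least 1 in both genotypes. Of all listed genes 18.4% were so in WT and 16.0% in KO. Il1b, which acts through NF-kB, had a mean of 1.07 log2 RPM in WT control, 1.48 in KO control, 6.53 in WT colitis and 5.31 in KO colitis. Tnf stood at 0.16 in WT control, 1.04 in KO control, 4.02 in WT colitis and 3.78 in KO colitis. Ifng, the inducer of Cxcl9 and Cxcl10, and Il17a, which induces ELR members in epithelium, were under the floor in controls. In colitis Ifng reached 1.33 log2 RPM in WT and −0.04 in KO, and Il17a 0.11 in WT and −1.30 in KO. The KO mean of Il17a was only 4.02 reads per library. Il1a stood at 3.08 in WT colitis and 1.46 in KO colitis, and Osm at 2.26 and 1.40. In KO colitis 7 of the 8 were lower than in WT, 4 of them by at least 1 (Il1a, Il17a, Ifng and Il1b), and Ltb was higher by 0.34. Of all listed genes 52.6% were lower there, and 2.9% by at least 1. Il1b and Osm were listed for colitis in KO and not in WT, and Il22 in WT and not in KO. None of the 8 was listed for KO against WT in colitis, so none of these genotype differences had passed the authors' test.

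Genes that carry these signals changed less. The cytokine receptors Tnfrsf1a, Tnfrsf1b and Ltbr were listed out of 8, with differences between colitis and control from 0.33 to 1.55 in WT and from 0.22 to 1.20 in KO. Of 11 signaling and transcription factors 5 were listed, and all 5 were higher in colitis in both genotypes, against 54.0% of all listed genes in WT and 54.3% in KO. Irf1, which is induced by interferons, was higher by 0.91 in WT and 0.78 in KO. Nfkbiz, a cofactor of NF-kB, was higher by 1.20 in WT and 0.93 in KO, and Zc3h12a, an RNase that degrades cytokine mRNAs, by 1.36 and 1.53. Cebpb was higher by 1.31 in WT and 0.48 in KO, and Cebpd by 1.13 and 0.69. Between genotypes in colitis none of the 5 differed by as much as 1, the lowest being Cebpb with −0.33.

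Proteases cut chemokines into more active, inactive or soluble forms. Of 6 such genes 5 were listed. Mmp8, the collagenase of neutrophils, was at or under the floor in both controls and reached 1.71 log2 RPM in WT colitis and −0.90 in KO colitis. Mmp9 had a mean of 2.56 in WT control, 2.85 in KO control, 4.32 in WT colitis and 3.39 in KO colitis. Mmp12, made by macrophages, reached 2.98 in WT colitis and 2.97 in KO colitis from 0.77 and 0.35. Adam10, which sheds Cxcl16, was higher in colitis by 0.53 in WT and 0.34 in KO. Dpp4, which truncates Cxcl9, Cxcl10 and Cxcl12, was the only 1 of the 5 lower in colitis, with differences of −0.56 in WT and −0.15 in KO. None of the 5 was listed for KO against WT in colitis. Among 5 other CXC ligands Cxcl14 alone was listed, with 4.67 log2 RPM in WT control, 4.71 in KO control, 5.52 in WT colitis and 5.21 in KO colitis.

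**Figure D4:**
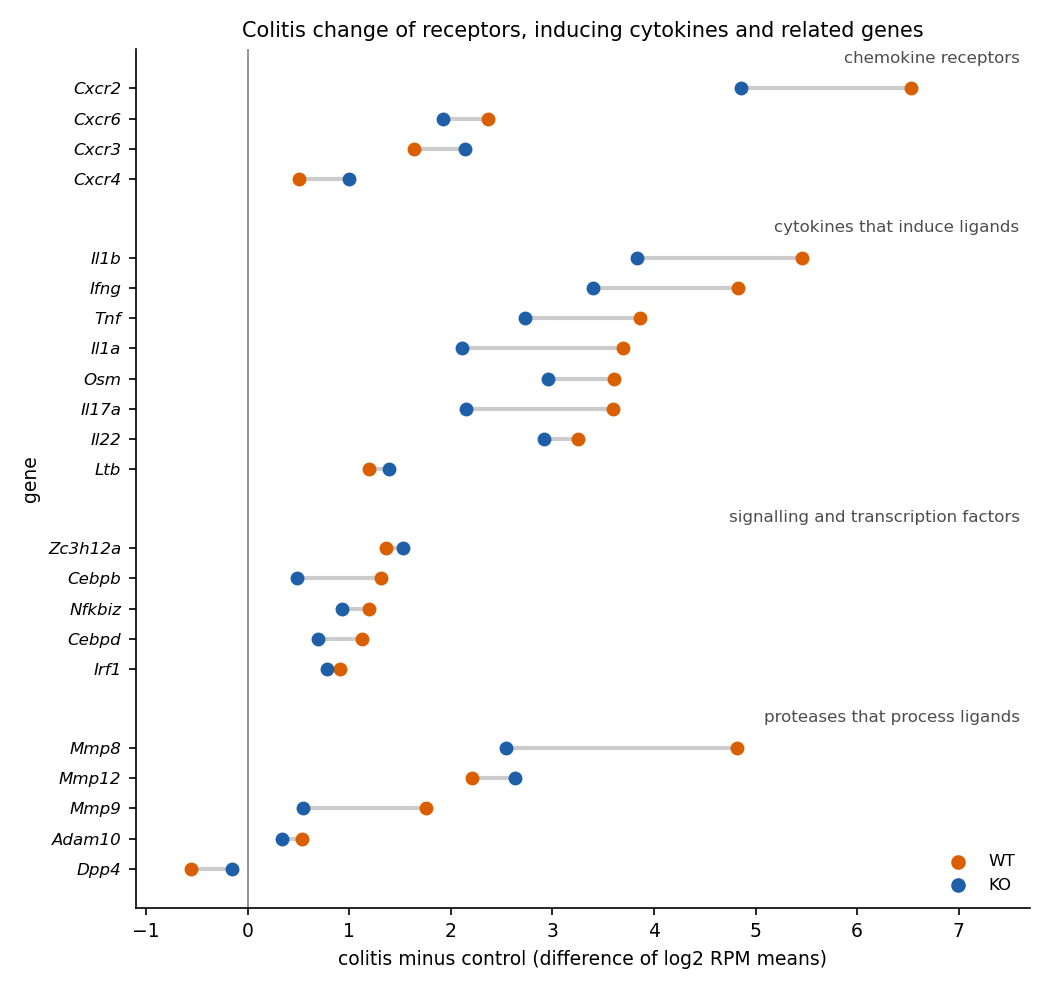
Colitis minus control difference of log2 RPM means in WT (orange) and KO (blue) for the listed receptors, inducing cytokines, signaling factors and proteases. Cxcr2 has the largest value in both genotypes (6.53 and 4.86), but its control means are under the floor. These values rest on the 0.9 read set for empty libraries. Against the floor Cxcr2 was at least 28.7-fold higher in WT and 8.71-fold in KO. Il1b, above the floor in all groups, was 44.05-fold and 14.3-fold higher. The signaling factors lie between 0.48 and 1.53.

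Marker genes of other cells in the tissue were described beside the chemokines. Of 9 neutrophil markers 7 were listed, all 7 higher in colitis in both genotypes and 6 of them lower in KO colitis than in WT colitis. Of all listed genes 54.0% were higher in colitis in WT and 54.3% in KO, and 52.6% were lower in KO colitis. S100a8, an abundant protein of neutrophil cytoplasm, was under the floor in both controls and stood at 5.54 log2 RPM in WT colitis and 2.88 in KO colitis, and S100a9 at 6.36 and 3.60. The KO minus WT difference in colitis was smaller for Csf3r (−0.90) and Retnlg (−0.80). Ltf hardly differed (−0.02), and Ly6g went the other way, higher in KO colitis by 0.19. The summed level of the 7 was 6.59 log2 RPM in WT control, 6.68 in KO control, 8.64 in WT colitis and 8.18 in KO colitis. In every group most of this level was Ly6g (6.52, 6.62, 7.697 and 7.882 in the same order). The sum thus mainly follows Ly6g, the only 1 of the 7 higher in KO colitis, and says little about the other 6. The summed level of 5 listed fibroblast markers out of 6 was 11.29 in WT control, 11.25 in KO control, 12.23 in WT colitis and 11.80 in KO colitis, and all 5 were lower in KO colitis, with differences from −0.63 to −0.18. Markers of T and NK cells (7 of 7 listed) had a summed level of 4.24, 4.16, 6.10 and 6.02 in the same order of groups, and markers of monocytes and macrophages (5 of 6) one of 7.52, 7.55, 8.48 and 8.45. Of B cell markers only Cd79b was listed, with 3.44 in WT colitis and 4.35 in KO colitis, while Cxcl13, the B cell attractant, had a difference of −0.40 there. None of 7 epithelial markers was listed, and of 4 endothelial markers only Tek (−0.38 between KO and WT in colitis). The smooth muscle markers Myh11 and Acta2, listed out of 5, were lower in colitis, with differences of −0.66 and −0.59 in WT and of −0.59 and −0.47 in KO. None of these marker genes was listed for KO against WT in colitis, so none of their genotype differences had passed the authors' test. What part these cells have in the chemokine levels was not tested.

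The CCL chemokines, a sister family, were set beside the CXCL members. The tables listed 12 CCL genes, of which 11 were higher in colitis in both genotypes, with a median difference of 3.10 in WT and 2.36 in KO, against 4.99 and 2.53 for the 9 CXCL members. Of all listed genes 54.0% were higher in colitis in WT and 54.3% in KO. With colitis, 10 of the 12 were lower in KO than in WT, against 52.6% of all listed genes. A difference of at least 1 was found for 3 of them, −2.50 for Ccl4, −1.33 for Ccl2 and −1.20 for Ccl7, against 2.9% of all listed genes. Ccl5, which attracts T cells, had close values in both, 4.14 log2 RPM in WT colitis and 4.19 in KO colitis. The KO change was below the WT change for 7 of the 12, near the 52.7% of all listed genes. None of the 12 was listed for KO against WT in colitis. The difference between the families was not tested.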

How the data were processed

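RNA-seq was performed by the submitters on 16 whole colon samples of mouse in 4 groups, assigned by sample title. The authors mapped reads to GRCm38 with HISAT2 2.1.0, kept uniquely mapped reads, removed reads over annotated ribosomal RNA because of contamination in some samples, counted reads over exons in SeqMonk and ran DESeq2 on raw counts of 2 groups at a time. The 4 deposited tables hold the genes with an adjusted p-value under 0.05 in 1 comparison, and the authors' p-value and fold columns were not used. The deposited log2 values are the authors' means over the libraries of a group of log2 RPM.

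From these, differences of means were computed with Python 3.11.15, pandas 2.3.3 and numpy 2.4.6. Since the values of single libraries were not used here, no test, SD or interval was computed, and whether samples came from separate mice is not given beyond their titles. The depth of each group was recovered from the steps that whole reads leave in the lowest means (100% of 67 to 118 means per group), a procedure checked on simulated data. A mean at or under 3 reads per library was treated as a floor, which covers counting error only. Folds against it are lower bounds. Sequences were read with Biopython 1.88 from GENCODE M21 and RefSeq, and figures drawn with matplotlib 3.10.9. Rows were matched by symbol, since the deposited identifier of Cxcl10 is that of the overlapping Art3.

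All members were named, and of each pathway list the receptors and up to 6 others with the largest WT difference. Members and lists were chosen with earlier results of these data known. Alternatives were a floor of 3 or 10 reads, centring on all listed or on housekeeping genes, members above the floor only, and thresholds of 0.5 and 2. Some genes of the pathway and marker lists are not reported here.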

Additional observations from a re-analysis of the deposited data

How the results depend on the processing

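No paired analysis was possible because the values used are group means without replicate numbers, and for the same reason no replicate could be left out. As no spread between replicates was at hand, a value was taken as moved when it changed by more than 0.2 on the log2 scale, or a count by more than 1.5 times. The median colitis change of the members was 4.99 in WT and became 4.13 with means raised to 3 reads, 2.48 with 10 reads, 4.73 centred on housekeeping genes and 2.82 for the 6 members above 3 reads in all 4 groups. In KO it was 2.53, and became 1.27 with 10 reads, 2.16 centred on housekeeping genes and 1.90 for the 6 members. The housekeeping genes with values were all higher in colitis in both genotypes, so centring on them could only lower these colitis changes. For these 6 the median KO minus WT difference in colitis was −0.45 in place of −1.02, the difference between the changes −0.60 in place of −1.08, and 5, 4 and 2 members, in place of 8, 7 and 5, passed 1 in WT, in KO and for being lower in KO colitis. With a threshold of 2 the last count was also 2. The change of Cxcl3 in KO reversed, from 2.33 to −0.015, with means raised to 10 reads, where its colitis mean is itself below that floor. Its KO minus WT difference in colitis moved from −3.06 to −1.93 there. Of 210 values of single members under an alternative 178 moved by less than 0.2. Centring on all listed genes could move none, since it subtracts at most 0.19, and leaving out members changes no value of those kept. All 9 members remained lower in KO colitis under both floors and both centrings. The centrings could not change a sign here, as they subtract −0.01 and 0.04 while the smallest difference is −0.14. In colitis the floors raised only the KO mean of Cxcl3.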

Other observations

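The listed genes that follow the ELR cluster on chromosome 5 are those of the EGF family ligands epigen and epiregulin. Ereg had a mean of 4.32 log2 RPM in WT control, 3.90 in KO control, 5.99 in WT colitis and 4.62 in KO colitis. Epgn was under 3 reads per library in both controls and stood at 0.83 in WT colitis and −0.68 in KO colitis. Both were thus higher in colitis and lower in KO colitis than in WT colitis, with differences of −1.36 for Ereg and −1.50 for Epgn. Farther along, Uso1 and Naaa, between Epgn and Cxcl9, differed by at most 0.20 between genotypes in colitis. Neither Ereg nor Epgn was listed for KO against WT in colitis. These neighboring genes were chosen for their position after the values of the members were known, and no test was made.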
